A study of Mus musculus with 26 samples.

Results

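The 8 genes described here, Plac1, Hand1, Cdx2, Elf5, Eomes, Gata2, Gata3 and Tfap2a, are genes of the trophoblast lineage, chosen by name among the 24015 genes measured, and all 8 were present in the data. Their mRNA was measured by RNA-seq in 15 libraries of mouse embryonic stem cells (mESCs) of the Stella:GFP line, in 7 conditions. Wild-type (wt) cells in serum+LIF gave 1 library. The wt cells in 2i+LIF, serum-free medium with LIF, a MEK inhibitor (PD0325901) and a GSK3β inhibitor (CHIR99021), gave 2. Prdm14-/- cells (clones G6 and F10) were made with CRISPR/Cas9, and each clone was also rescued with FLAG-HA-tagged Prdm14 (FH-Prdm14) or with the E294K mutant of Prdm14, a charge change on the surface that contacts Mtgr1. Mtgr1-/- cells (clones A3, C1 and C3) were made in the same way, and each was rescued with FLAG-HA-tagged Mtgr1 (FH-Mtgr1). All lines were maintained in 2i+LIF, and every condition other than wt 2i+LIF was taken after 5 days in serum+LIF. The 2 or 3 libraries of an edited condition are each from 1 clone, and the rescue lines carry their clone's mutation. The study asked whether the transcriptional regulator Prdm14 acts in mESCs together with its partner Mtgr1, a co-repressor encoded by Cbfa2t2, so the 2 knockouts are compared here directly and each against its own rescue.

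The first lineage decision of the mouse embryo separates the trophectoderm, the outer layer that becomes the trophoblast of the placenta, from the inner cell mass, the source of mESCs. Cdx2, Eomes, Elf5, Gata3 and Tfap2-family factors are used by trophectoderm and trophoblast stem cells, while Hand1 drives the formation of trophoblast giant cells, Gata2 activates placental hormone genes with Gata3, and Plac1 encodes a secreted protein of the placenta. mESCs normally make little trophoblast. Several of these factors also act elsewhere, Eomes and Hand1 in mesoderm, Gata2 in blood, and Tfap2a in neural crest and surface ectoderm.

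The libraries held 10668572 to 21218414 reads on genes, so that 1 read on a 1-kb transcript was worth 0.0471 to 0.0937 RPKM (reads per kilobase of gene length, scaled to 1000000 reads on genes). Clones of 1 condition differed by more than counting noise in every condition with replicates, and clone C3 stood further from the other Mtgr1-/- clones (chi-square per degree of freedom of 43.9 and 39.9) than these did from each other (6.61). The 2 Prdm14-/- clones (22.8) and the 2 libraries in 2i+LIF (64.5) also stood apart, and values are therefore given for each library. Prdm14 was at 2.77 RPKM in wt serum+LIF, at 1.96 to 3.60 in the Prdm14-/- cells and at 79.8 to 116 in the FH-Prdm14 and E294K lines, and Cbfa2t2 was at 40.7 RPKM in wt serum+LIF, 18.0 to 19.9 in Mtgr1-/- cells and 25.5 to 28.0 after rescue with FH-Mtgr1. Small CRISPR mutations can leave the transcript in place, so these levels do not test the knockout labels. Of the pluripotency genes, Pou5f1 was at 308 RPKM or above in every library. Nanog was at 25.1 to 31.4 RPKM in Mtgr1-/- cells, 45.1 to 57.9 after rescue with FH-Mtgr1 and 91.2 in wt serum+LIF. Sox2 was at 118 to 160 RPKM in Mtgr1-/- cells, which overlapped the 152 to 188 of their rescue lines, and at 304 in wt serum+LIF. Against FH-Mtgr1, Nanog was lower in Mtgr1-/- cells (log2 fold change -0.82, adjusted p = 0.00757, limma), whereas Sox2 did not pass.

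Of the 8 genes, 6 reached 1 RPKM in at least 2 libraries and were tested with limma on log2(RPKM + 0.5) across 13477 genes. Plac1 passed this filter only through the 3 Mtgr1-/- clones and Prdm14-/- clone G6. Cdx2 and Elf5 did not pass and are given by their values, with tests from a fit of every gene with a value above 0. The pseudocount of 0.5 shrinks fold changes of low genes, so ratios of mean RPKM are given beside them where reads allowed.

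Hand1 and Plac1 set the Mtgr1-/- cells apart from every other condition, Gata2 and Gata3 were highest there as well, and Eomes was instead highest in the Prdm14-/- cells. In the direct comparison Hand1, Plac1, Gata2 and Tfap2a were higher and Eomes lower in Mtgr1-/- than in Prdm14-/- cells, and Gata3 was not called. That is 4 of 6 tested genes higher, where 14.4% of all genes were higher, and 1 of 6 lower, where 21.1% of all genes were lower. Plac1 was tested only because of the libraries in which it was high, so it adds no support to this count or to those below. Without the filter, 5 of the 8 genes were called in either direction, beside 4985 of 20385 genes. As these are bulk samples, more cells of a trophoblast type and more RNA per cell cannot be told apart.

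**Figure D1:**
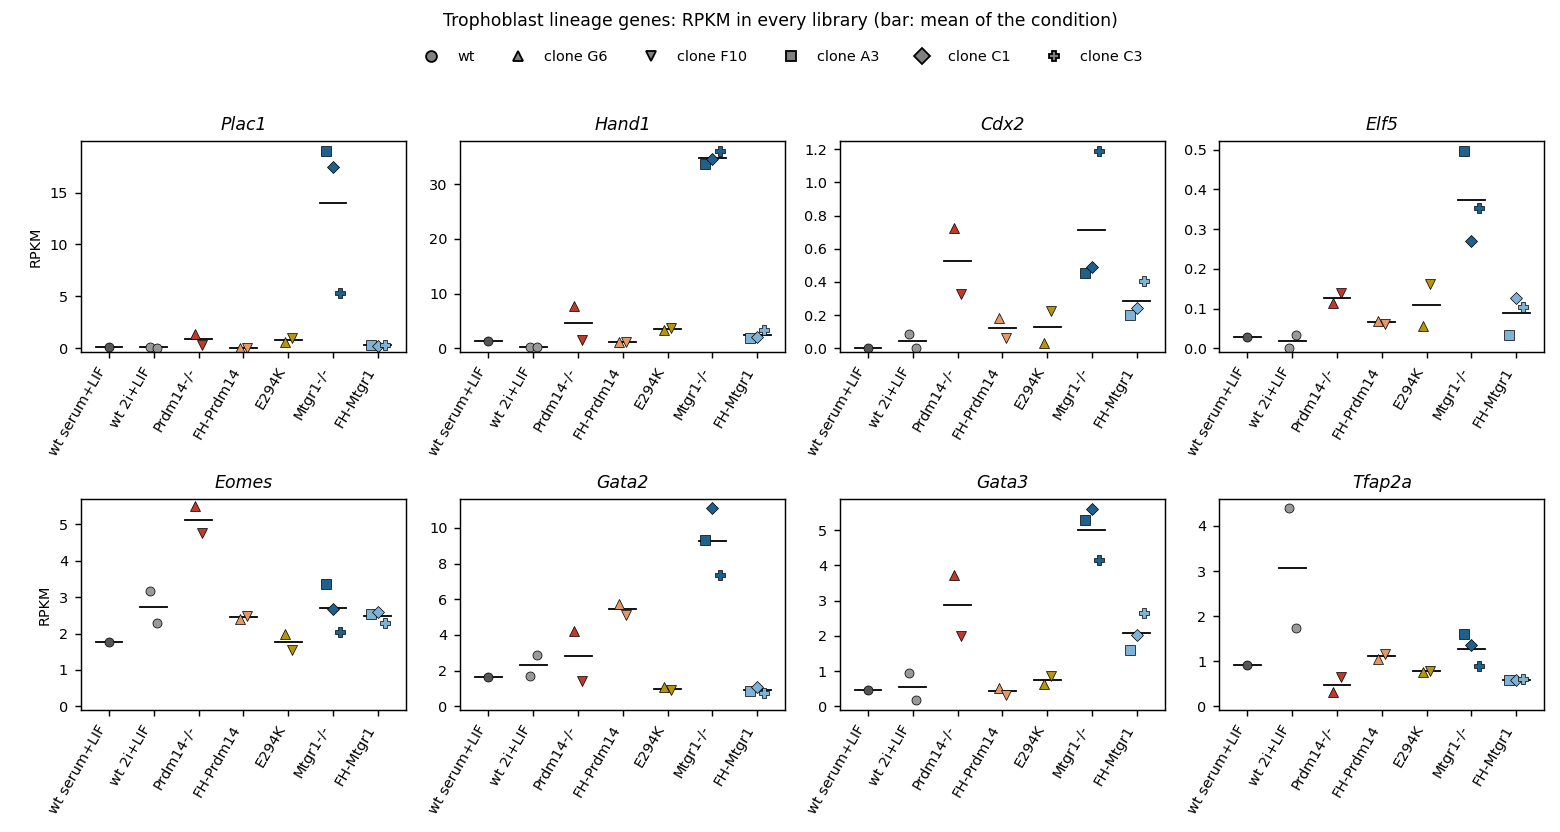
RPKM (linear axes, each from 0) of the 8 trophoblast lineage genes in all 15 libraries, by condition, with the marker shape giving the clone and the bar the mean. Hand1 sits at 33.7 to 36.1 RPKM in the 3 Mtgr1-/- clones and at 7.68 or below elsewhere, while Eomes is highest in the 2 Prdm14-/- clones.

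Hand1 is a bHLH transcription factor of trophoblast giant cells (chr11:57642207-57646320, minus strand, NCBIM37). Its level was 33.7, 34.7 and 36.1 RPKM in Mtgr1-/- clones A3, C1 and C3 (34.8 ± 1.18, SD, n = 3), and 7.68 and 1.48 RPKM in Prdm14-/- clones G6 and F10. The FH-Mtgr1 lines of the same clones held 1.87, 2.06 and 3.31 RPKM, and wt serum+LIF 1.29 RPKM. The 3 Mtgr1-/- clones were thus nearly equal and far above all other libraries, while the Prdm14-/- clones differed from each other, F10 lying at the wt level. The mean of Mtgr1-/- cells was 7.61 times that of Prdm14-/- cells (log2 fold change 3.14, SE 0.42, adjusted p = 0.000225, limma with Benjamini-Hochberg adjustment) and 14.4 times that of FH-Mtgr1 (3.63, SE 0.38, adjusted p = 1.48e-05). The difference from Prdm14-/- was 2.11 on the log2 scale with clone G6 alone and 4.16 with clone F10 alone, both past the threshold. The E294K lines held 3.44 and 3.66 RPKM and the FH-Prdm14 lines 1.19 and 1.09 RPKM, without overlap, and wt 2i+LIF was lowest at 0.198 and 0.206 RPKM. E294K exceeded FH-Prdm14 by 1.30 on the log2 scale (SE 0.46), which did not pass (adjusted p = 0.0657 in limma).

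Plac1 encodes a placental secreted protein and lies on the X chromosome (chrX:50423172-50593288, minus strand, NCBIM37). It was at 19.0, 17.5 and 5.36 RPKM in Mtgr1-/- clones A3, C1 and C3 (14.0 ± 7.49, SD, n = 3), and at 1.37 and 0.364 RPKM in Prdm14-/- clones G6 and F10. The FH-Mtgr1 lines held 0.339, 0.264 and 0.294 RPKM (0.299 ± 0.0375). Clone C3 was the lowest of the knockout clones, yet it lay above every library outside the Mtgr1-/- condition. The direct difference was 3.32 on the log2 scale (SE 0.45, adjusted p = 0.000247, limma), a 16.1-fold ratio of mean RPKM that rests on 824 reads in Mtgr1-/- against 22 in Prdm14-/- cells, and leaving out 1 library at a time gave 2.77 (clone G6 as the only Prdm14-/- library) to 3.88 (clone F10 as the only one, or without C3), each past the threshold. Against FH-Mtgr1, which gave 15 reads in all, it was 4.0 (SE 0.40, adjusted p = 1.31e-05). The FH-Prdm14 lines held 0.0727 and 0.0646 RPKM (1 read in each library), the E294K lines 0.587 and 0.968 RPKM, wt serum+LIF 0.118 RPKM, and wt 2i+LIF 0.175 and 0 RPKM, where 3 reads would be 0.263 and 0.219 RPKM. The E294K lines did not overlap the FH-Prdm14 lines but the difference of 1.15 (SE 0.49) did not pass (adjusted p = 0.121, limma). X-linked genes as a class had a median direct difference of 0.10 over 438 genes, beside -0.04 for all genes tested.

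Gata2 and Gata3 encode zinc finger factors that bind the same GATA motif, and their patterns across the lines differed. Gata2 (chr6:88143885-88157024, plus strand, NCBIM37) was at 9.30, 11.1 and 7.35 RPKM in Mtgr1-/- clones A3, C1 and C3, at 4.20 and 1.44 RPKM in Prdm14-/- clones G6 and F10, and at 0.849, 1.09 and 0.775 RPKM after rescue with FH-Mtgr1. The FH-Prdm14 lines held 5.74 and 5.14 RPKM, above both of their parent clones, and the E294K lines 1.07 and 0.920 RPKM, beside 1.63 RPKM in wt serum+LIF and 1.71 and 2.87 RPKM in wt 2i+LIF. Gata2 was thus highest in cells that lacked Mtgr1, next in the FH-Prdm14 lines, and low with FH-Mtgr1 or with the E294K mutant. The wt 2i+LIF cells also held more unmutated Prdm14 (19.1 to 30.8 RPKM) than wt serum+LIF (2.77 RPKM). Gata2 differed by only 0.35 on the log2 scale between those 2 conditions. A link to the amount of Prdm14 was not tested. Mtgr1-/- exceeded Prdm14-/- cells by 1.67 on the log2 scale (SE 0.32, adjusted p = 0.0019, limma), or by 1.04 with Prdm14-/- clone G6 alone (adjusted p = 0.0235) and 2.31 with F10 alone, and FH-Mtgr1 by 2.78 (SE 0.28, adjusted p = 1.37e-05). E294K was lower than FH-Prdm14 by a log2 fold change of -1.99 (SE 0.35, adjusted p = 0.00226), although Prdm14 itself was as abundant in the E294K lines (89.9 to 105 RPKM) as in the FH-Prdm14 lines (79.8 to 116 RPKM). Prdm14-/- against FH-Prdm14 was at -0.97 (adjusted p = 0.0585, limma), which became -1.61 and passed with clone F10 alone (adjusted p = 0.00629).

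Gata3 (chr2:9778705-9811661, minus strand, NCBIM37) was at 5.28, 5.61 and 4.15 RPKM in Mtgr1-/- clones A3, C1 and C3 and at 3.73 and 2.01 RPKM in Prdm14-/- clones G6 and F10. FH-Mtgr1 lines held 1.60, 2.02 and 2.66 RPKM, FH-Prdm14 lines 0.533 and 0.323 RPKM, E294K lines 0.625 and 0.871 RPKM, wt serum+LIF 0.451 RPKM and wt 2i+LIF 0.933 and 0.170 RPKM. Gata3 alone of the 6 tested genes was called higher in both knockouts against their rescues, though Hand1 joined it with an adjustment for GC content (adjusted p = 0.0441 for Prdm14, limma) or with clone G6 alone, and Plac1 with a pseudocount of 0.1 (adjusted p = 0.0283). The log2 fold change was 1.10 for Mtgr1 (SE 0.29, adjusted p = 0.00683, limma) and 1.82 for Prdm14 (SE 0.35, adjusted p = 0.00263). The knockouts themselves did not overlap, with a direct difference of 0.75 (SE 0.32, 95% interval 0.05 to 1.45) that did not pass after adjustment (adjusted p = 0.0886, limma). Annotated exons of 9230102O04Rik on the same strand and Gm13256 on the other strand share 232 bases with Gata3, and reads there could not be assigned by strand.

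Windows upstream of a start are shown for Gata2, Gata3 and Plac1, which rose in Mtgr1-/- cells against FH-Mtgr1 and had windows with AP-2 or GATA letters. Tfap2a and, without the filter, Elf5 were also called higher there. Each had a window with Cdx letters, 54 and 37 bases before the start, that is not shown. Gata2 and Plac1 have 2 windows each in the table, and the ones not shown held none of the 5 motifs searched. The sequences are from RefSeq on GRCm38.p6, a later build than that of the gene positions above. They run from 250 bases before the start to the base before it, 5′ to 3′ on the gene's strand, with motif matches in capitals: the letters of the AP-2 motif (GCCNNNGGC) in Gata2 and Gata3 and, on the other strand, those of the GATA motif (AGATAA) in Plac1.
Gata2, chr6:88198414-88198663, plus strand: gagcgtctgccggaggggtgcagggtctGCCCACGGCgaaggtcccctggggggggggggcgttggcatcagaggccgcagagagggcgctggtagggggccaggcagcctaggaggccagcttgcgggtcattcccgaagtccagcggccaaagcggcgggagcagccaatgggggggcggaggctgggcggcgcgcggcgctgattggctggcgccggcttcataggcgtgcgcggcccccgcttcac
Gata3, chr2:9878601-9878850, minus strand: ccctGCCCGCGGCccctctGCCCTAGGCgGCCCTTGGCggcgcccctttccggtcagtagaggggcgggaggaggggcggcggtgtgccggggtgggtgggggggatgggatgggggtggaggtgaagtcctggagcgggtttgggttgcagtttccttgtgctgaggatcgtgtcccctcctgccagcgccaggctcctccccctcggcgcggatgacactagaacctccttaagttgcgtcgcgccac
Plac1, chrX:53240111-53240360, minus strand: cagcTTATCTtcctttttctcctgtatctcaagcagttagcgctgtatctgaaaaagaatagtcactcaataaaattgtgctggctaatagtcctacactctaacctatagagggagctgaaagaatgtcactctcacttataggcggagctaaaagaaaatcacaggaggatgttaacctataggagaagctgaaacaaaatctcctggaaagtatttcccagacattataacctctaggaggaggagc
Gata3 held the AP-2 letters at 3 places whose first bases lay 246, 231 and 221 bases before the start, Gata2 at 1 place (222 bases), and Plac1 the GATA letters at 1 place (246 bases). The Gata windows had a GC content of 74.0 and 70.0%, and that of Plac1 40.4%. Over the 11 windows of the 7 genes in the RefSeq table (Hand1 had no entry), AP-2 letters were in 3, GATA letters in 1 and Cdx letters (TTTATG) in 2, beside 13.7%, 9.99% and 10.8% of all 32851 windows. The Prdm14 letters (GGTCTCTAA) and the T-box letters (AGGTGTGA) were in 0 of the 11 windows, and in 0.24% and 1.12% of all windows, on either strand. These matches describe letters and not binding.

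Eomes, a T-box factor of trophoblast stem cells and of the primitive streak (chr9:118387330-118395250, plus strand, NCBIM37), was the gene whose order of the knockouts was turned round. It was at 5.50 and 4.76 RPKM in Prdm14-/- clones G6 and F10 and at 3.35, 2.68 and 2.04 RPKM in Mtgr1-/- clones A3, C1 and C3. Its level in the FH-Mtgr1 lines was 2.54, 2.60 and 2.28 RPKM, in the FH-Prdm14 lines 2.41 and 2.49 RPKM, in the E294K lines 1.98 and 1.56 RPKM, in wt serum+LIF 1.78 RPKM and in wt 2i+LIF 3.18 and 2.29 RPKM. Both Prdm14-/- clones lay above all 13 other libraries, and Mtgr1-/- cells overlapped their rescue. Mtgr1-/- against Prdm14-/- gave -0.84 on the log2 scale (SE 0.20, adjusted p = 0.00687, limma). Prdm14-/- exceeded FH-Prdm14 by 0.93 (SE 0.22, adjusted p = 0.0081), whereas Mtgr1-/- against FH-Mtgr1 gave 0.08 (95% interval -0.30 to 0.47, adjusted p = 0.716). With clone F10 as the only Prdm14-/- library, the direct difference was -0.74 and did not pass (adjusted p = 0.0583, limma), and that from FH-Prdm14 was 0.83 (adjusted p = 0.0701).

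Tfap2a encodes the AP-2α factor of trophectoderm, neural crest and surface ectoderm. It was low throughout, at 1.60, 1.35 and 0.891 RPKM in Mtgr1-/- clones A3, C1 and C3, 0.317 and 0.644 RPKM in Prdm14-/- clones G6 and F10, and 0.577, 0.591 and 0.601 RPKM after rescue with FH-Mtgr1. The wt cells in 2i+LIF had the highest values, 4.39 and 1.74 RPKM, against 0.925 RPKM in wt serum+LIF, and the FH-Prdm14 lines held 1.05 and 1.16 RPKM and the E294K lines 0.769 and 0.783 RPKM. The direct difference was 0.86 on the log2 scale (SE 0.29, adjusted p = 0.0365, limma). This call was lost with clone G6 left out (0.62, adjusted p = 0.247), with F10 left out (adjusted p = 0.0507), with A3 left out (0.73, adjusted p = 0.117) and with C1 left out (0.82, adjusted p = 0.0923), and without the filter on low genes (adjusted p = 0.0569). Against FH-Mtgr1 it was 0.69 (SE 0.26, adjusted p = 0.0413, limma), and 0.69 with an adjusted p of 0.0725 when each knockout clone was paired with its rescue. An opposite-strand gene, Gm16989, shares 111 exon bases with Tfap2a.

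Cdx2 and Elf5, the caudal homeobox and ETS factors that hold trophoblast stem cells in their state, stayed low in every condition. Cdx2 was at 0.452, 0.490 and 1.19 RPKM in Mtgr1-/- clones A3, C1 and C3 (20, 19 and 29 reads) and at 0.724 and 0.327 RPKM in Prdm14-/- clones G6 and F10 (18 and 9 reads). It was at 0.203, 0.242 and 0.403 RPKM after rescue with FH-Mtgr1, 0.181 and 0.0645 RPKM in the FH-Prdm14 lines, 0.0293 and 0.227 RPKM in the E294K lines, 0.0874 and 0 RPKM in wt 2i+LIF and 0 in wt serum+LIF, where 3 reads would be 0.0881 RPKM. The knockouts overlapped, and the difference between them was 0.22 (SE 0.26, 95% interval -0.37 to 0.80, adjusted p = 0.628, limma without the filter). Elf5 was at 0.497, 0.271 and 0.354 RPKM in Mtgr1-/- clones A3, C1 and C3 (23, 11 and 9 reads) and at 0.115 and 0.139 RPKM in Prdm14-/- clones G6 and F10 (3 and 4 reads). No other library exceeded 0.163 RPKM, so that the 3 Mtgr1-/- clones were the highest. Elf5 differed between the knockouts by 0.47 (SE 0.11, adjusted p = 0.0128, limma without the filter) and between Mtgr1-/- and FH-Mtgr1 by 0.57 (SE 0.10, adjusted p = 0.00142), at a level under 0.5 RPKM.

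Each knockout was then set against its rescue over the 6 tested genes. In Mtgr1-/- against FH-Mtgr1, 5 were higher (26.2% of all genes were) and 0 lower (26.1% of all genes). Of the 5, Tfap2a lost its call without the filter (adjusted p = 0.0611, limma), with a pseudocount of 1 (adjusted p = 0.0581) and without any 1 of clones A3 and C1 or the 3 FH-Mtgr1 lines (adjusted p of 0.0803 to 0.136). In Prdm14-/- against FH-Prdm14, Gata3 and Eomes were higher, 2 of 6 (11.4% of all genes), and 0 lower (13.8%). Hand1 and Plac1 had positive differences of 1.29 (SE 0.46, adjusted p = 0.0581, limma) and 1.16 (SE 0.49, adjusted p = 0.107) in the Prdm14 comparison. Hand1 depended on the clone there, at 2.32 and past the threshold with G6 alone (adjusted p = 0.000303, limma) and at 0.27 with F10 alone (adjusted p = 0.581). E294K against FH-Prdm14 gave 1 gene lower, Gata2 (13.2% of all genes were lower), and 5 genes that were not called.

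**Figure D2:**
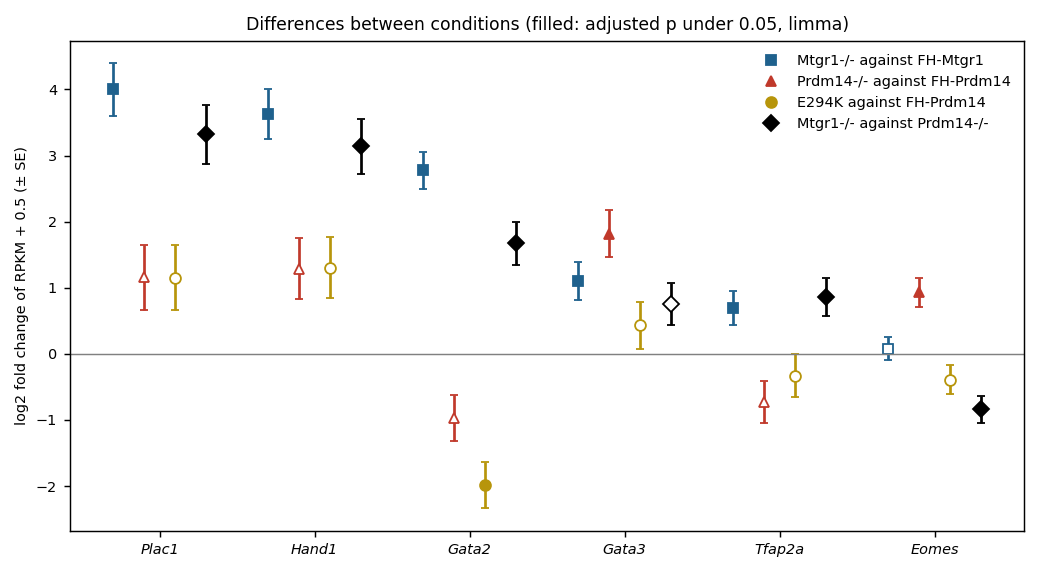
Log2 fold change of RPKM + 0.5 with its SE for the 6 tested genes in 4 comparisons, filled where the adjusted p was under 0.05 in limma. Plac1, Hand1 and Gata2 lie at 2.78 or more for Mtgr1-/- against FH-Mtgr1, and Gata2 lies below 0 for Prdm14-/- and E294K against FH-Prdm14.

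The difference between the knockout effects, (Mtgr1-/- over FH-Mtgr1) less (Prdm14-/- over FH-Prdm14), was tested itself. It was positive for Gata2 (3.76, SE 0.45, adjusted p = 0.000192, limma), Plac1 (2.83, SE 0.64, adjusted p = 0.00595), Hand1 (2.34, SE 0.59, adjusted p = 0.0112) and Tfap2a (1.42, SE 0.41, adjusted p = 0.0207), and negative for Eomes (-0.85, SE 0.28, adjusted p = 0.0369). These are 4 of 6 genes in the positive direction, beside 17.1% of all genes, and 1 of 6 in the negative, beside 14.3%. Gata3 did not pass (-0.73, SE 0.45, adjusted p = 0.242). With voom weights on the reads Plac1 no longer passed (2.49, adjusted p = 0.246, limma). All values of this difference take in the FH-Prdm14 lines, where Prdm14 was at 79.8 to 116 RPKM beside 2.77 RPKM in wt serum+LIF. Loss of Prdm14 and its high level in the rescue cannot be told apart in them. For Gata2 the rescues themselves differed, as it was higher in FH-Prdm14 than in FH-Mtgr1 by 2.08 (SE 0.32, adjusted p = 0.000399, limma). Between the rescues 1 gene was higher in FH-Prdm14 (26.2% of all genes) and 1, Gata3, was lower (-1.47, SE 0.32, adjusted p = 0.00361; 15.4% of all genes). This comparison and the direct one share their libraries with the tests above.

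Against the wt serum+LIF library, which has no replicate and is assumed to vary like the rest, 4 of 6 genes were higher in Mtgr1-/- cells (14.9% of all genes): Plac1 by 4.37, Hand1 by 4.30, Gata3 by 2.53 and Gata2 by 2.18 on the log2 scale, each with an adjusted p of 0.00153 or below in limma. In Prdm14-/- cells 2 of 6 were higher (11.7% of all genes), Gata3 by 1.78 (adjusted p = 0.014) and Eomes by 1.30 (adjusted p = 0.00699). With only these 2 conditions in the fit, neither passed (adjusted p = 0.0638 and 0.0709, limma). In wt 2i+LIF, Tfap2a alone was higher (1.22, SE 0.39, adjusted p = 0.0416, limma), 1 of 6 beside 9.28% of all genes, and not with the first of the 2 libraries left out (0.65, adjusted p = 0.149). Hand1 was at -1.35 there (adjusted p = 0.101).

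Levels of different genes can be set side by side only per length, as RPKM. On that scale Hand1 was the most abundant of the 8 in Mtgr1-/- cells, followed by Plac1 and Gata2 (means of 14.0 and 9.26 RPKM) and Gata3 (5.01 RPKM), and the range of Plac1 overlapped those of Gata2 and Gata3. In Prdm14-/- cells Eomes had the highest mean, 5.13 RPKM, and its range overlapped that of Hand1. Across the 15 libraries log2 values of Plac1 and Hand1 went together most closely (Pearson r = 0.93), then Hand1 and Gata3 (0.84) and Plac1 and Gata3 (0.80), while Eomes had r of 0.15 with Plac1 and 0.08 with Hand1. These correlations are descriptions over libraries that share conditions, clones and 1 experiment. Among all tested genes the closest to Plac1 were Pparg, a nuclear receptor needed for the placental labyrinth (r = 0.982), Serpinb9e (0.977) and Cdh5 (0.976). These passed the filter only through Mtgr1-/- cells, with means of 0.263 RPKM or below in every other condition, so their r follows largely from that condition. The closest to Hand1 were Rap1b (0.978), Zfp36l3 (0.976) and Nudt10 (0.969). Nudt10 had a mean of 1.35 RPKM in Mtgr1-/- cells and 0.511 RPKM or below in every other condition, so its r also follows largely from that condition. Gata3 was closest to the simple-epithelium keratin Krt18 (0.940), Zfp651 and Lmo4 (0.938 each), Gata2 to Sept5 (0.928), Slc27a2 (0.903) and Batf3 (0.899), Eomes to Irf2 (0.916), Npr2 (0.880) and Hspb2 (0.870), and Tfap2a to Nqo1 (0.911), Sox1 (0.900) and Acad8 (0.898).

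Other genes of the lineage were taken as lists. These lists, and those of other cell types below, were chosen with earlier results of these data known. Their counts are therefore descriptions and no independent support. Among 34 trophoblast differentiation and placental genes, 18 passed the filter, of which 11 were higher and 3 lower in Mtgr1-/- than in Prdm14-/- cells (14.4% and 21.1% of all genes), with a median log2 fold change of 1.01 beside -0.04 for all genes. Pparg passed the filter only through Mtgr1-/- clones, so it adds no support to these 11 or to the 9 that rose against FH-Mtgr1. The largest differences were those of Rhox6 (2.14, adjusted p = 0.00358, limma) and Rhox9 (1.68, adjusted p = 0.00707), X-linked homeobox genes of placenta and germ line that are close relatives and may share reads, and of Peg10, an imprinted retrotransposon-derived gene needed for the placenta (2.03, adjusted p = 0.00266). Peg10 was at 753 to 848 RPKM in the 3 Mtgr1-/- clones, 128 to 290 RPKM in Prdm14-/- cells, 183 to 197 RPKM in E294K cells, 51.8 to 65.0 RPKM with FH-Mtgr1 and 22.1 to 26.6 RPKM with FH-Prdm14. Adm (-1.47, adjusted p = 0.0122), Mmp9 (-1.04, adjusted p = 0.0183) and Ovol2 (-0.79, adjusted p = 0.00207, limma) were lower in Mtgr1-/- cells. Against the rescues, 9 of the 18 rose and 2 fell in Mtgr1-/- cells (26.2% and 26.1% of all genes), and in Prdm14-/- cells 7 rose and 2 fell (11.4% and 13.8%).

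**Figure D3:**
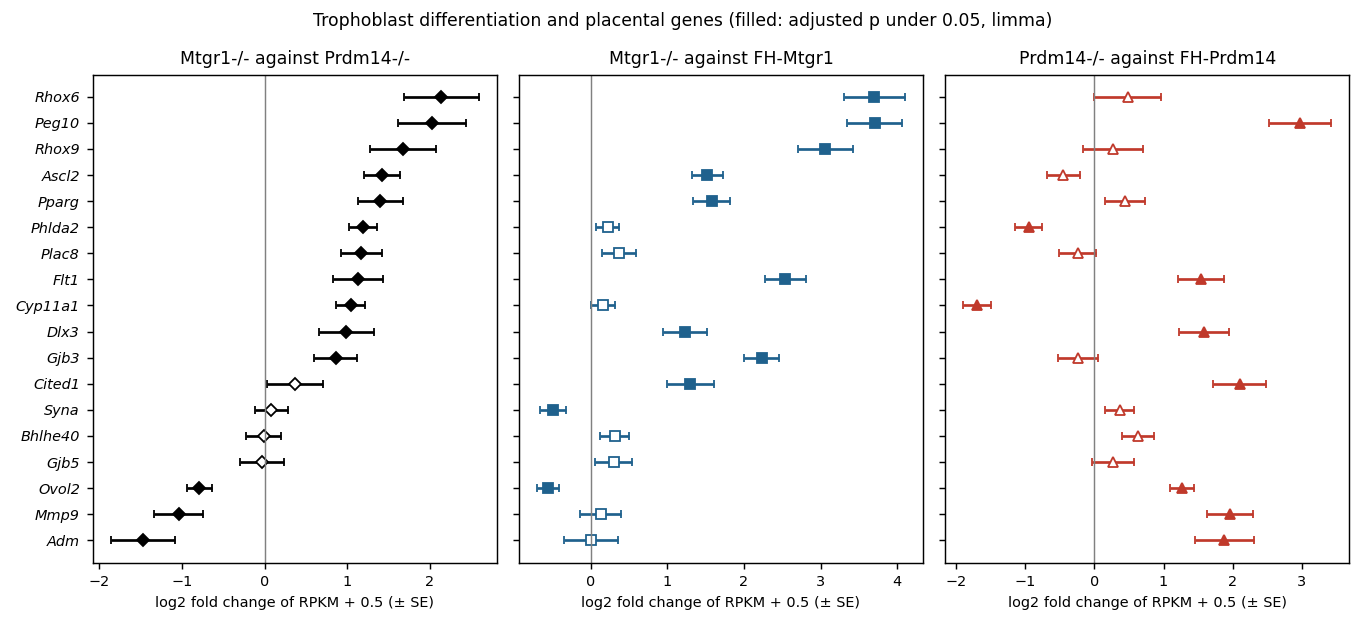
Log2 fold change of RPKM + 0.5 with its SE for the 18 tested trophoblast differentiation and placental genes, for the direct comparison and each knockout against its rescue, filled where the adjusted p was under 0.05 in limma. In the direct comparison 11 genes lie to the right of 0 and filled, led by Rhox6, Peg10 and Rhox9.

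Genes of mature trophoblast were hardly present. Synb, Tpbpb, Prl3b1, Ctsq and Plac9a were at 0 in every Mtgr1-/- library. In every Prdm14-/- library Tpbpa, Tpbpb, Prl3d1, Prl3b1, Prl2c2 and Plac9a were at 0. Tpbpb, Prl3b1 and Plac9a were at 0 in all 15 libraries, so these data do not show whether they could be measured. Prl3d1, the placental lactogen of giant cells, was picked out after its values were seen: it had 40, 7 and 1 reads in Mtgr1-/- clones A3, C1 and C3 (2.21, 0.441 and 0.101 RPKM) and 0 reads in the 12 other libraries.

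Of 12 trophoblast stem cell factors, all of which passed the filter, 2 were higher and 2 lower in the direct comparison, near the shares of all genes (14.4% and 21.1%), with a median log2 fold change of -0.09. The higher genes were Id2 (1.13, adjusted p = 0.00946, limma) and Msx2 (1.13, adjusted p = 0.00757). The lower were Esrrb (-1.67, adjusted p = 5.1e-05) and Sox2 (-1.22, adjusted p = 0.000653), which mESCs also use. Against the rescues, 8 of them rose and 1 fell in Mtgr1-/- cells (26.2% and 26.1% of all genes). The largest rises were those of Msx2 (2.01), Id2 (1.46) and Arid3a (1.27). In Prdm14-/- cells 5 rose and 3 fell (11.4% and 13.8%), led by Fgfr2 (2.66), Id2 (1.56) and Msx2 (1.20). Msx2 passed the filter only through the 2 knockouts and was at 0.908 RPKM or below in every other condition. It therefore adds no support to these counts. Fgfr2 is the FGF4 receptor of trophoblast stem cells, and the paper counts it among its extraembryonic endoderm markers.

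Most of the 12 trophectoderm epithelium genes were called in each knockout against its rescue. In Mtgr1-/- against FH-Mtgr1 cells 8 were higher and 2 lower (median 1.44), beside 26.2% and 26.1% of all genes, and 2 were not called. In Prdm14-/- against FH-Prdm14 cells 8 were higher and 1 lower (median 2.01), beside 11.4% and 13.8%, and 3 were not called. The keratin Krt8 differed by 4.0 (adjusted p = 1.13e-05, limma) and 4.49 (adjusted p = 6.99e-05) in these comparisons, while the water channel Aqp3 differed by -2.49 (adjusted p = 6.06e-05) and -3.34 (adjusted p = 0.000116). Directly compared, 2 were higher and 2 lower in Mtgr1-/- than in Prdm14-/- cells (median 0.04), near the shares of all genes (14.4% and 21.1%), with Dsp, a desmosome protein, at 1.24 (adjusted p = 0.00279) and Lgals3 at 1.21 (adjusted p = 0.00425) on the higher side. Keratins and desmosomes are also made by other simple epithelia, and the paper counts Krt19, a gene of this list, among its extraembryonic endoderm markers.

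Markers of other cell types were counted in the direct comparison, beside 14.4% higher and 21.1% lower of all genes, and their part in the values above was not tested. Of 10 primitive endoderm markers 8 were tested, and 0 were higher and 4 lower in Mtgr1-/- than in Prdm14-/- cells, with Gata6 at -1.49 (adjusted p = 0.0105, limma), Sox17 at -1.27 (adjusted p = 0.0148) and Gata4 at -1.23 (adjusted p = 0.018). Their summed level was 10.6 to 17.1 RPKM in Mtgr1-/- and 14.8 to 31.2 RPKM in Prdm14-/- cells. Primitive streak and mesoderm markers, where Eomes and Hand1 are also made, gave 0 higher and 2 lower of 4 tested of 11, and summed to 10.8 to 20.2 and 14.8 to 20.8 RPKM. Surface ectoderm and neural crest markers gave 1 higher and 2 lower of 4 tested of 9 and summed to 3.93 to 5.77 and 3.13 to 4.65 RPKM, with Tfap2b at 0 in Prdm14-/- cells. Fibroblast markers gave 0 higher and 2 lower of 4 tested of 6 and summed to 13.7 to 27.6 and 16.9 to 22.4 RPKM, with Postn at 0 in Prdm14-/- cells. The 34 placental genes summed to 1060 to 1170 RPKM in Mtgr1-/- and 266 to 476 RPKM in Prdm14-/- cells. Peg10 alone gave 753 to 848 and 128 to 290 RPKM of these sums, so they mostly follow that single gene. Among pluripotency genes Nanog (-1.51, adjusted p = 0.00074) and Sox2 were lower and Pou5f1 higher (0.61, adjusted p = 0.00461, limma) in Mtgr1-/- than in Prdm14-/- cells.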

How the data were processed

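RNA-seq libraries were prepared from oligo-dT purified mRNA with a kit that does not mark strand. The authors mapped them with Tophat (mm9), used HTSeq for counts on RefSeq models, and deposited RPKM values with gene lengths. Values were whole reads within 0.01 read in 100.0% of cases, giving 10668572 to 21218414 reads per library. Genes at 1 RPKM or more in 2 libraries (13477) were fitted as log2(RPKM + 0.5) with limma 3.58.1 (lmFit and eBayes with a trend) in R 4.3.3, with 1 mean for each of the 7 conditions, and p-values were adjusted over all genes by Benjamini-Hochberg at a threshold of 0.05. Tests were two-sided, and the script was tested on simulated data. Replicates are clones, or cultures for wt cells whose origin is not given, and p-values measure the spread between them only. Positions are from NCBIM37 (mm9). Rescue lines derive from the knockout clones. The deviations of paired clones from their condition means correlated at 0.299 for Prdm14-/- and FH-Prdm14, 0.0797 for E294K and FH-Prdm14, and 0.0633, -0.182 and 0.0278 for the Mtgr1 clones A3, C1 and C3. Genes named from lists were the members, up to 3 per list, direction and comparison with the largest called change, and the 3 genes most correlated with each tested member. The genes and lists were chosen with earlier results of these data known. ChIP-seq samples (11) were left out.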

Additional observations from a re-analysis of the deposited data

Results flagged for a closer look

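In 5 of the 6 tested genes the change of Mtgr1-/- against FH-Mtgr1 differed from that of Prdm14-/- against FH-Prdm14. This rests on the test of the difference itself, in limma with Benjamini-Hochberg adjustment. The difference on the log2 scale was 3.76 for Gata2, 2.83 for Plac1, 2.34 for Hand1, 1.42 for Tfap2a and -0.85 for Eomes. Of all genes, 17.1% were called in the positive and 14.3% in the negative direction. Plac1 no longer passed with voom weights on the reads. Nearest the threshold in the main fit were Eomes (adjusted p = 0.0369, limma) and Tfap2a (adjusted p = 0.0207). Over all alternatives and leave-outs, 13 single-gene values of this difference lost their call, and 99 kept their direction and side of the threshold. The Gata2 difference holds a positive Mtgr1 effect and a Prdm14 value of -0.97 that was not called (adjusted p = 0.0585, limma). That value, like the Prdm14 part of every difference here, is taken against FH-Prdm14 lines. Prdm14 was at 79.8 to 116 RPKM in those lines, beside 2.77 RPKM in wt serum+LIF. Loss of Prdm14 and its high level in the rescue cannot be told apart in these differences. Gata2 in Prdm14-/- cells against the wt serum+LIF library was at 0.50, so a fall of Gata2 on loss of Prdm14 is not shown. The Eomes difference holds a Prdm14 effect beside a Mtgr1 effect near 0. No condition has more than 3 libraries, so single libraries were not tested for standing apart.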

How the results depend on the processing

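Of 684 values of single genes under alternatives and leave-outs, 620 kept their direction and side of the threshold, 38 lost a call, 16 gained one and 10 reversed. With genes at 5 RPKM or more in 2 libraries only 4 of the 8 genes could be tested, among 9882 genes. Called were 3 in the direct comparison (3713 of all genes), 1 for Prdm14-/- against FH-Prdm14 (2333) and 3 for the difference of the effects (3291). Against wt serum+LIF, 1 was called for Prdm14-/- (2876 of all genes) and 0 for 2i+LIF (2248). With only the compared conditions, 3 of the 6 genes were called for E294K against FH-Prdm14 and 5 for FH-Prdm14 against FH-Mtgr1. Of all 13477 genes, 7214 and 6712 were called there. Prdm14-/- against wt and 2i+LIF gave 0 of the 6 genes, in fits that called 625 and 0 of all genes. E294K against FH-Prdm14 gave 2 with a pseudocount of 0.1 (2463 of 13477 genes) and 2 with the GC content adjustment (2655 of 12048). In 2i+LIF 0 were called without the filter, beside 3276 of 20385 genes.

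Leaving out 1 library at a time gave 3 to 5 called genes in the direct comparison, 4 to 5 for Mtgr1-/- against FH-Mtgr1, 1 to 3 for Prdm14-/- against FH-Prdm14, 3 to 5 for the difference of the effects, 1 to 4 for Prdm14-/- against wt and 0 to 1 for 2i+LIF. The lowest direct count, 3, came without Prdm14-/- clone G6, and Prdm14-/- against wt gave 1 without G6 and 4 without F10. For Prdm14-/- against FH-Prdm14 the count was 1 without the FH-Prdm14 line of G6. The difference of the effects gave 3 without Prdm14-/- clone G6 or without either FH-Prdm14 line. The number called among all genes moved with the library left out as well, so these counts are not read as a result about the trophoblast genes.

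Reversals were of uncalled values. Gata3 in 2i+LIF against serum+LIF was -0.06 with a pseudocount of 0.1 and -0.21 with voom on reads, and -0.50 to 0.59 over the leave-outs. Plac1 in 2i+LIF was 0.21 with the GC content adjustment and -0.31 to 0.13 over the leave-outs. Over the leave-outs Eomes ranged from -0.06 to 0.24 for Mtgr1-/- against FH-Mtgr1 and from -0.06 to 0.02 for FH-Prdm14 against FH-Mtgr1, and Gata2 from -0.14 to 1.14 for Prdm14-/- against wt. Where no sentence names fewer genes or samples, the cause was not tested.

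With the replicate block by clone, which pairs each knockout clone with its rescue, Mtgr1-/- against FH-Mtgr1 gave 4 called genes in place of 5, as Tfap2a lost its call (adjusted p = 0.0725, limma), and no other call of the 6 genes changed. The wt serum+LIF condition has 1 library. Plac1, Cdx2 and Elf5 rest on few reads outside Mtgr1-/- cells, which limits comparisons among the other conditions.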
